A study of Mus musculus with 19 samples.

Results

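Cadherins and protocadherins were described in RNA from mouse endometrium, taken either at estrus or 3.5 days after mating (day 3.5 post-coitum, pc). Members were all genes of the count table with a symbol that starts with Cdh and a number or with Pcdh, which gave 93 entries (92 symbols) of 49089 genes. They fell into 5 classical type I cadherins, 13 type II cadherins, 5 other cadherins, 12 non-clustered protocadherins and 58 clustered protocadherins (14 alpha, 22 beta and 22 gamma). A member outside the clusters was called a desert member when at least 500 kb lay between it and the nearest protein-coding gene on at least 1 side, which held for 22 of 35.

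Endometrium was scraped from the myometrium of wild-type C57Bl/6 females, and each library was made from a pool of samples. Estrus libraries (CONT, n = 3, numbered 1, 2 and 4) came from virgin females around ovulation, whose age was not given in the sources used here. For the INT libraries (n = 4), females aged 8 to 14 weeks had mated with intact Balb/c males and tissue was taken on day 3.5 pc. In 3 more groups of 4 libraries, named here after their columns (SVX, SVX_VAS and VAS), the Balb/c males had undergone surgery, with females of the same age and tissue taken at the same time. Titles given to these libraries name other surgeries than the columns do, so the names serve only to tell the groups apart and no surgery is read from them. CONT differed from every other group in mating, cycle stage and time together, and these cannot be told apart. The comparisons against CONT all share the same 3 libraries.

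Cadherins are adhesion proteins of the cell surface that need calcium and join like cells to each other. Type I and type II members are tied to actin inside the cell by catenins. Cdh1 (E-cadherin) holds epithelial cells together, Cdh5 (VE-cadherin) does so in blood vessels, and Cdh11 is known from mesenchymal cells. Clustered protocadherins lie in 3 tandem arrays and are best known from neurons, where each cell uses a few of them. In the alpha and gamma arrays a variable exon with a promoter of its own is spliced to constant exons that the whole array shares, whereas each beta gene is a single-exon unit. In the uterus, contacts between epithelial cells are remodelled before an embryo attaches.

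Promoters are printed for 5 members outside the clusters, 3 that rose (Cdh6, Cdh10 and Pcdh9) and 2 that fell (Pcdh17 and Cdh24), chosen because they were called in INT, their windows hold no annotated exon base and the 50 bases after the start were found in a transcript of the gene. Each is the 250 bases before a start of the gene in RefSeq, 5′ to 3′ on the gene's strand, on GRCm38.p6. For Cdh10 that start lies inside the gene as GENCODE draws it, so its window is intronic there. Promoter entries were matched by symbol for 22 members. Capitals mark the GC box (GGGCGG or CCGCCC), the CCAAT box (CCAAT or ATTGG) and the TATA box (TATAAA or TTTATA), on either strand.
Cdh6: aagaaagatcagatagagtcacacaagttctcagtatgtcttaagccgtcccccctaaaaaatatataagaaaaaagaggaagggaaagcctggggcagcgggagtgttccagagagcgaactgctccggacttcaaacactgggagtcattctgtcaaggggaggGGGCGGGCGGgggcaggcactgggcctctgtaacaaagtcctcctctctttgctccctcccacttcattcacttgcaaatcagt
Cdh10: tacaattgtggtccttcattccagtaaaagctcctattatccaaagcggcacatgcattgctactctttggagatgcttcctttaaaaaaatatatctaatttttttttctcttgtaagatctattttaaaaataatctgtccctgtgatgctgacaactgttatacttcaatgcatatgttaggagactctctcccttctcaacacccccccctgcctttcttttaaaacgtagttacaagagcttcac
Pcdh9: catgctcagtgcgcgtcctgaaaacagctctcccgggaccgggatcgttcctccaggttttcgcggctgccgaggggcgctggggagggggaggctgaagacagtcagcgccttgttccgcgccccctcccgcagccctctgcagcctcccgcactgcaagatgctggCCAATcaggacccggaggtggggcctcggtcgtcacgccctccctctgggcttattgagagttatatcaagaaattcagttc
Pcdh17: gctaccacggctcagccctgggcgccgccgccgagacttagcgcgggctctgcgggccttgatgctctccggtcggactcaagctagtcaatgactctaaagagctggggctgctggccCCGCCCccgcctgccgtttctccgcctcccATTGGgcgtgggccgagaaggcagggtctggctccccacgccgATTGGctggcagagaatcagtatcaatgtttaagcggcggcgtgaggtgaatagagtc
Cdh24: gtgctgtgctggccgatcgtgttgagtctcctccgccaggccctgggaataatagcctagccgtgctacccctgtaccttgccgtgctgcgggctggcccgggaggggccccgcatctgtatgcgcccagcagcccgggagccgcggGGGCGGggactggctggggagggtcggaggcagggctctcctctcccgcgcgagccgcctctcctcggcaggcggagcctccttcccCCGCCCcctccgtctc

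These windows lie at chr15:13173676-13173925 on the minus strand (Cdh6), chr15:18820079-18820328 on the plus strand (Cdh10), chr14:93890680-93890929 on the minus strand (Pcdh9), chr14:84443313-84443562 on the plus strand (Pcdh17) and chr14:54641365-54641614 on the minus strand (Cdh24). G and C made up 51.2% of the Cdh6 window, 36.8% of that of Cdh10 and 63.6% of that of Pcdh9, and 64.8% and 72.8% of those of Pcdh17 and Cdh24. Across 32851 mouse promoters of this length the median was 52.4%, with quartiles of 45.2 and 61.2%. Cdh10 had 2 CG steps, Cdh6 had 6, and Pcdh9, Pcdh17 and Cdh24 had 18, 21 and 22, beside a median of 6 over all promoters. The GC box was found in Cdh6 (2 overlapping copies), Cdh24 (2) and Pcdh17 (1), and is in 32.7% of all promoters. A CCAAT box was found in Pcdh9 (1) and Pcdh17 (2), and is in 33.8%. None of the 5 windows held a TATA box (12.4% of all promoters), the E box CACCTG or CAGGTG (17.2%) or the steroid receptor element TGTTCT or AGAACA (16.1%). These are matches of letters only.

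All 58 clustered genes lie on chromosome 18. In the annotation, a median of 53.6% (38.9 to 91.4%) of the exon bases of an alpha gene and 44.7% (31.5 to 98.3%) of those of a gamma gene were also exon bases of another gene on the same strand, whereas only 2 beta genes shared any (up to 9.67%). Pcdhgb8, with 98.3% shared and 78 bases of its own, had 0 to 10 counts per library, against 31 to 1713 in the other 21 gamma genes. Exons of 19 members overlapped a gene on the opposite strand. Pcdhga10 had no exon base that was neither shared nor under the opposite gene Gm26672, yet held 113 to 489 counts per library. Per base not shared with another gene, Pcdhga10 was at 3.25 RPKM in CONT, where the 21 tested gamma genes had a median of 2.75 and ran from 0.963 to 7.91. Reads opposite Gm26672 were thus counted for Pcdhga10, whereas shared exons gave Pcdhgb8 few counts. No source used here names the strand option of featureCounts.

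Totals ran from 12661266 to 31781270 counts per library, so that 3 counts, the limit that a count of 0 allows, stood for 0.108 to 0.236 CPM (counts scaled to a common library total, with TMM factors). VAS 2 and VAS 3 stood apart from the other 17 libraries, with TMM factors of 1.29 and 1.33 (0.846 to 1.02 elsewhere), 1.84 and 1.82% of counts in the 20 leading genes (5.49 to 7.46% elsewhere) and summed stromal markers of 2205 and 2383 CPM (6342 to 11061 elsewhere). SVX 1 correlated less with the mean of its group (0.978) than the other SVX libraries (0.992 to 0.994), though values as low or lower were found in INT (0.954 to 0.978), SVX_VAS 2 (0.953) and VAS (0.847 to 0.917), whose libraries are more spread. INT 1, INT 2, SVX_VAS 2 and VAS 1 held 9322, 3796, 8869 and 3014 CPM of summed estrogen-response genes, compared with 12451 to 14287 in CONT and 241 to 1566 in the remaining day 3.5 pc libraries. Values of SVX without SVX 1, and of VAS without VAS 2 and VAS 3, are given beside the comparison of the groups.

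Genes were tested if 3 or more of the 19 libraries reached 3 CPM (before TMM factors), and were called when edgeR's quasi-likelihood test gave a Benjamini-Hochberg false discovery rate (FDR) of 0.05 or less over 17222 genes and a change of at least 1.5-fold. Among the 93 members 62 were tested, of which 39 reached 3 CPM in all 3 CONT libraries and 13 in none of them, so that these 13 passed through day 3.5 pc libraries alone. In INT, 53 of 62 members were higher than in CONT, 3 were lower and 6 were not called. Over all tested genes, 20.9% were called higher and 12.7% lower, whereas the members' shares were 85.5 and 4.84%. Outside the clusters 11 of 20 tested members (55%) were higher, and within them 42 of 42. The median log2 fold-change (logFC) of the members was 1.03, against -0.01 over all tested genes. The 53 were called higher in each of the 4 day 3.5 pc groups. Among the 39 members, 32 were higher and 3 lower in INT, beside 13.9% and 15.1% of the 14319 genes that reached 3 CPM in all CONT libraries.

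**Figure D1:**
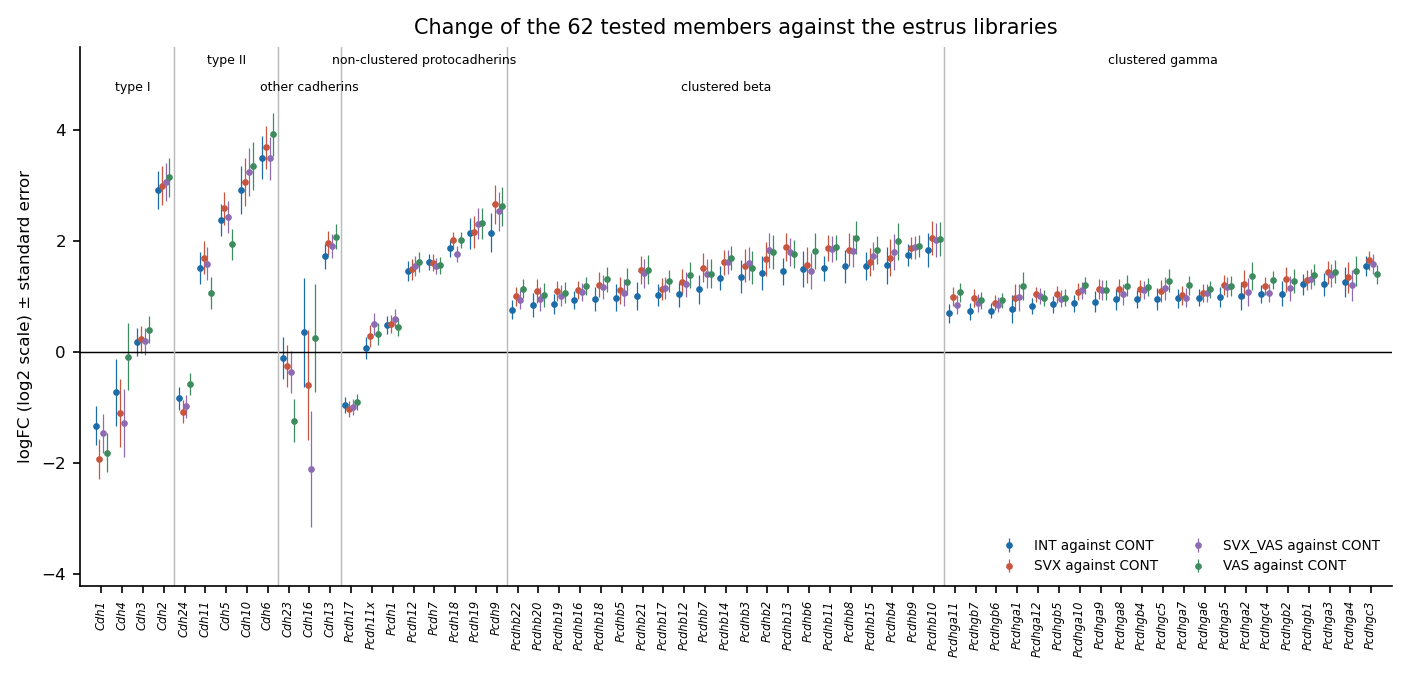
The vertical axis is the logFC (log2 scale) of each of the 62 tested members against CONT, with 1 point per day 3.5 pc group and bars of 1 standard error, and members are grouped by class along the horizontal axis. All points of the clustered beta and gamma genes lie above 0, whereas the cadherin classes hold members on both sides, from -1.32 (Cdh1) to 3.50 (Cdh6) in INT.

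The classical type I cadherins went opposite ways. Cdh1 (ENSMUSG00000000303.12; GRCm38 chr8:106603351-106670246, plus strand), the epithelial cadherin, was at 986, 804 and 964 CPM in CONT, 511, 484, 194 and 283 in INT, 283, 243, 224 and 219 in SVX, 269, 464, 265 and 339 in SVX_VAS and 471, 193, 159 and 227 in VAS. Every day 3.5 pc library was below every CONT library, and INT 1, INT 2, SVX_VAS 2 and VAS 1 were the highest of them. Cdh1 fell in INT (logFC -1.32 ± 0.35, 2.5-fold lower, FDR 0.00575) and in the other groups, with a logFC of -1.92 in SVX, -1.46 in SVX_VAS and -1.81 in VAS (-1.37 without VAS 2 and VAS 3, FDR 0.0101). Its mean level per exon length was 201 RPKM in CONT and 80.4 in INT, the highest of all members in both groups, and 53.01 in SVX, where Cdh11 and Cdh5 were higher. Its share of the summed CPM of all members was 42.4 to 56.7% in CONT and 7.94 to 22.7% in INT.

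Cdh2 (N-cadherin), a cadherin of neural and mesenchymal cells, was at 0.951, 1.54 and 2.05 CPM in CONT, 8.85, 9.71, 14.5 and 12.95 in INT, 9.58, 12.3, 13.6 and 12.97 in SVX, 16.5, 9.81, 14.4 and 10.004 in SVX_VAS and 6.99, 14.4, 18.2 and 14.2 in VAS. It reached 3 CPM in no CONT library, so that it passed the minimum through day 3.5 pc libraries alone. It did not overlap between CONT and any other group. Cdh2 rose in INT (logFC 2.93 ± 0.35, 7.61-fold, FDR 9.61e-06), and per exon length it stayed far under Cdh1, at 0.188 RPKM in CONT and 1.43 in INT. Cdh3 (P-cadherin), which lies close to Cdh1 on the chromosome at chr8:106510891-106557297, plus strand, was at 5.29, 5.78 and 4.7 CPM in CONT and 6.66, 5.99, 6.39 and 4.97 in INT. Its groups overlapped and it was not called in any of the 4 groups (logFC in INT 0.19 ± 0.25, FDR 0.568). Cdh4 (R-cadherin) was not called either, with 10.1, 6.03 and 14.1 CPM in CONT and 3.71, 11.7, 3.99 and 5.04 in INT (logFC -0.72 ± 0.60, FDR 0.354). Cdh15 was below the minimum.

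**Figure D2:**
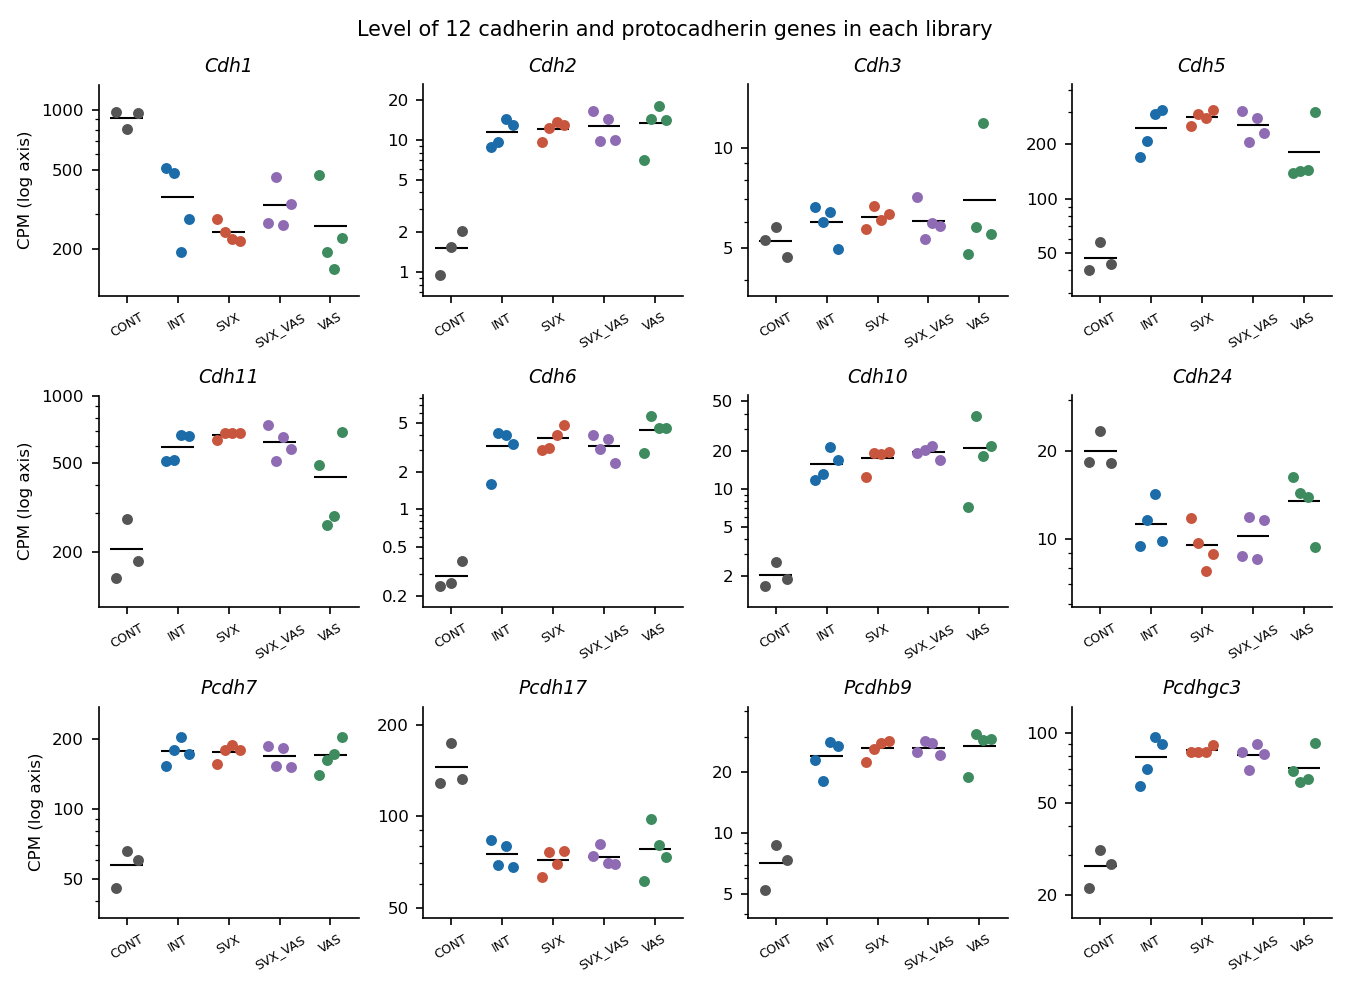
Each panel shows the CPM (log axis) of 1 member in the 19 libraries by group, with 1 point per library and a line at the group mean. Cdh1, Cdh24 and Pcdh17 are lower in INT than in CONT, Cdh3 overlaps with CONT in every group, and the other 8 members are higher in every INT library than in any CONT library.

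All 5 tested type II cadherins were called in INT, 4 higher and 1 lower, beside 20.9% and 12.7% of all tested genes. Of these, Cdh6 and Cdh10 reached 3 CPM in no CONT library and passed the minimum through day 3.5 pc libraries alone. Cdh5 (chr8:104101625-104144511, plus strand), the cadherin of endothelial junctions, was at 40.01, 57.7 and 43.1 CPM in CONT, 169, 209, 292 and 309 in INT, 252, 295, 278 and 309 in SVX, 305, 204, 281 and 231 in SVX_VAS and 139, 141, 143 and 299.5 in VAS. CONT was lowest and no other group overlapped with it. The rise was 5.21-fold in INT (logFC 2.38 ± 0.29, FDR 1.21e-05), and the logFC was 2.59 in SVX, 2.44 in SVX_VAS and 1.94 in VAS (2.25 without VAS 2 and VAS 3).

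Cdh11 (chr8:102632095-102785642, minus strand), the mesenchymal cadherin, was at 153, 282 and 182 CPM in CONT, 511, 519.7, 671 and 660.1 in INT, 637, 685, 683 and 685 in SVX, 745, 513, 659 and 578 in SVX_VAS and 489, 266, 290.4 and 690.0 in VAS. It rose in INT (logFC 1.52 ± 0.29, 2.87-fold, FDR 0.000494). VAS 2 lay within the range of CONT and VAS 3 just above it, and the logFC was 1.71 in SVX, 1.60 in SVX_VAS and 1.08 in VAS (1.54 without VAS 2 and VAS 3). With only VAS and CONT fitted, the VAS value was not called (FDR 0.0697). Per exon length its mean was 23.1 RPKM in CONT, 66.3 in INT and 75.5 in SVX. The ratio of Cdh11 to Cdh1 per exon length was 0.0799 to 0.18 in CONT, 0.514 to 1.78 in INT, 1.16 to 1.6 in SVX, 0.568 to 1.42 in SVX_VAS and 0.534 to 1.56 in VAS, so that Cdh11 was below Cdh1 in all CONT libraries and above it in all SVX libraries.

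Cdh6 (chr15:13034200-13173639, minus strand), known from the embryonic kidney and gonad, was at 0.238, 0.251 and 0.379 CPM in CONT, 1.59, 4.16, 3.99 and 3.36 in INT, 3.04, 3.15, 4.02 and 4.8 in SVX, 3.96, 3.05, 3.69 and 2.35 in SVX_VAS and 2.87, 5.69, 4.51 and 4.59 in VAS. CONT libraries held 4 to 7 counts of it, and no day 3.5 pc group overlapped with them. Its rise had the largest fold among the tested members (logFC 3.50 ± 0.39, 11.3-fold, FDR 6.19e-06). Cdh10 (chr15:18818947-19014236, plus strand), described mainly in brain, was at 1.66, 2.62 and 1.9 CPM in CONT, 11.9, 13.05, 21.4 and 16.9 in INT, 12.4, 19.2, 19.02 and 19.6 in SVX, 19.4, 20.6, 22.2 and 17.1 in SVX_VAS and 7.1, 38.2, 18.2 and 21.8 in VAS, again without overlap, and rose in INT (logFC 2.92 ± 0.43, 7.59-fold, FDR 5.3e-05). Cdh24 (chr14:54631992-54641364, minus strand) moved the other way. It was at 18.4, 23.4 and 18.3 CPM in CONT, 9.45, 11.6, 14.3 and 9.87 in INT, 11.8, 9.67, 7.75 and 8.88 in SVX, 8.74, 11.9, 8.57 and 11.6 in SVX_VAS and 16.3, 14.4, 13.97 and 9.39 in VAS. All day 3.5 pc libraries were below CONT, and Cdh24 fell in INT (logFC -0.83 ± 0.20, 1.77-fold lower, FDR 0.00334), SVX (logFC -1.07) and SVX_VAS (-0.97), whereas in VAS its logFC of -0.57 (FDR 0.0258) was under the fold threshold. The other 8 type II cadherins were below the minimum.

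Of the other cadherins, Cdh13 (T-cadherin), which is held by a lipid anchor and lacks a cytoplasmic tail, was at 6.24, 7.79 and 8.26 CPM in CONT, 21.3, 20.5, 29.5 and 27.02 in INT, 27.8, 33.2, 28.01 and 27.4 in SVX, 30.6, 24.9, 30.5 and 25.9 in SVX_VAS and 19.2, 38.02, 40.5 and 28.1 in VAS. The groups did not overlap with CONT, and it rose in INT (logFC 1.73 ± 0.22, 3.31-fold, FDR 1.71e-05). Its nearest protein-coding gene lay 482 kb away on the wider side, just short of the distance that defines a desert. Cdh16, a kidney cadherin, ran from 0.682 to 4.62 CPM in CONT and from 1.25 to 7.63 in INT and was not called (logFC 0.36 ± 0.97). Its logFC turned negative without CONT 2 and without INT 2 (-0.71). Cdh23, the cadherin of the hair cell tip link, was at 2.85, 4.02 and 3.87 CPM in CONT, 3.4, 3.66, 3.02 and 3.29 in INT, 3.43, 2.6, 2.85 and 3.22 in SVX, 2.7, 3.11, 3.36 and 2.06 in SVX_VAS and 2.93, 0.467, 1.03 and 1.69 in VAS. The 3 lowest libraries were VAS 2, VAS 3 and VAS 4. It was not called in INT (logFC -0.10 ± 0.38) and fell in VAS (logFC -1.23 ± 0.39, FDR 0.0128), but without VAS 2 and VAS 3 the logFC was -0.59 with an FDR of 0.0602.

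Of 8 tested non-clustered protocadherins, 5 were higher and 1 was lower in INT, beside 20.9% and 12.7% of all tested genes. Pcdh7 (chr5:57717967-58133230, plus strand), a protocadherin with a long cytoplasmic tail, was at 45.7, 65.6 and 60.4 CPM in CONT, 154, 179, 205 and 172 in INT, 157, 179, 188 and 179.8 in SVX, 187, 153, 182 and 151 in SVX_VAS and 140.1, 162, 173 and 204 in VAS. Day 3.5 pc libraries were all above CONT, and Pcdh7 rose in INT (logFC 1.63 ± 0.15, 3.09-fold, FDR 2.04e-06). Pcdh17 (chr14:84443563-84537060, plus strand) was at 129, 174 and 132 CPM in CONT, 83.5, 69.4, 80.1 and 68.3 in INT, 63.2, 76.3, 69.8 and 77.1 in SVX, 73.8, 81.01, 70.1 and 69.95 in SVX_VAS and 61.05, 98.3, 80.5 and 73.3 in VAS. It was lower in all 16 day 3.5 pc libraries than in any CONT library, and fell in INT (logFC -0.95 ± 0.14, 1.93-fold lower, FDR 6.1e-05) with a logFC of -1.02 in SVX, -0.98 in SVX_VAS and -0.89 in VAS. Per exon length Pcdh7 went from 5.4 to 16.7 RPKM and Pcdh17 from 15.3 to 7.92, so that their order was reversed between CONT and INT.

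Pcdh9 (chr14:93013410-93890679, minus strand) was at 2.68, 4.52 and 2.27 CPM in CONT, 14.1, 15.1, 12.3 and 15.6 in INT, 10.9, 22.9, 25.8 and 21.6 in SVX, 21.6, 18.9, 17.2 and 16.9 in SVX_VAS and 9.41, 26.97, 22.1 and 20.7 in VAS, and rose in INT (logFC 2.16 ± 0.35, 4.46-fold, FDR 0.000115). SVX 1 and VAS 1 were the lowest of their groups and still above CONT. Pcdh19 (chrX:133582860-133688987, minus strand), the protocadherin of an X-linked epilepsy, was at 4.82, 7.86 and 6.29 CPM in CONT and 20.95, 21.9, 39.8 and 29.9 in INT (logFC 2.15 ± 0.28, 4.43-fold, FDR 2.07e-05). Pcdh18 (chr3:49743296-49757325, minus strand) was at 10.3, 14.7 and 8.79 CPM in CONT and 37.7, 43.6, 43.9 and 40.6 in INT (logFC 1.87 ± 0.15, 3.66-fold, FDR 1.02e-06). In both genes CONT was lower than all 16 day 3.5 pc libraries. Pcdh12 (VE-cadherin-2), an endothelial protocadherin, was at 10.1, 11.9 and 11.7 CPM in CONT and 22.6, 29.3, 37.2 and 34.6 in INT (logFC 1.46 ± 0.18, 2.75-fold, FDR 1.39e-05). Pcdh1 was at 55.8, 60.9 and 55.9 CPM in CONT and 63.1, 71.8, 90.7 and 97.1 in INT, and passed the FDR but not the fold threshold (logFC 0.49 ± 0.16, FDR 0.0206). In SVX_VAS it was just past both (logFC 0.61, FDR 0.00485). Pcdh11x was not called in any of the 4 groups (logFC in INT 0.08 ± 0.20).

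Members in gene deserts included 9 of the 11 members outside the clusters that rose in INT (Cdh2, Cdh5, Cdh6, Cdh10, Cdh11, Pcdh7, Pcdh9, Pcdh18 and Pcdh19), and Pcdh17, which fell. Of 12 tested desert members, 9 were higher, 1 was lower and 2 were not called, with a median logFC of 2.01, beside 20.9% higher and 12.7% lower over all tested genes. Cdh2, Cdh6 and Cdh10 reached 3 CPM in no CONT library, passed through day 3.5 pc libraries alone and raise this median. Of the 8 desert members past the minimum in all CONT libraries, 5 were higher and 1 lower, with a median of 1.57, beside 13.9% and 15.1% of all such genes. Of the 8 tested members that were neither in deserts nor clustered, 2 were higher, 2 lower and 4 not called, with a median of 0.27. The difference between these sets was not tested.

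Of the 58 clustered protocadherins 42 were tested, while the alpha genes, Pcdhb1 and Pcdhgb8 were below the minimum. All 21 tested beta genes and all 21 tested gamma genes were called higher in INT, SVX, SVX_VAS and VAS. Over all tested genes, 20.9, 23.1, 22.1 and 23.2% were called higher in these groups. Of the 42, 10 reached 3 CPM in no CONT library and passed through day 3.5 pc libraries alone. All 25 that reached it in all CONT libraries were higher in INT (median logFC 0.96), beside 13.9% of all such genes. For each of the 42, every one of the 16 day 3.5 pc libraries was above every CONT library. The share of all tested genes with every library above CONT was 31% in INT, 35.2% in SVX, 33.5% in SVX_VAS and 26.7% in VAS. Summed over the array, beta genes were at 98.01 ± 15.9 CPM (SD, n = 3) in CONT and 220.4 ± 24.05 (SD, n = 4) in INT, and gamma genes at 180.2 ± 30.6 and 371 ± 41.9.

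Among the beta genes the logFC in INT ran from 0.77 to 1.84, with a median of 1.34. Pcdhb9, the most abundant of them per exon length in INT, was at 5.23, 8.8 and 7.35 CPM in CONT, 23.1, 18.2, 28.3 and 27.1 in INT, 22.5, 26.2, 27.9 and 28.5 in SVX, 25.2, 28.6, 27.8 and 24.5 in SVX_VAS and 19.1, 30.98, 28.9 and 29.1 in VAS. CONT was lowest throughout, and Pcdhb9 rose in INT (logFC 1.76 ± 0.20, 3.38-fold, FDR 7.64e-06). Pcdhb10 was at 0.951, 2.41 and 1.74 CPM in CONT and 5.9, 5.36, 6.45 and 6.93 in INT, the largest fold of the array (logFC 1.84 ± 0.30, 3.58-fold, FDR 0.000148). Pcdhb4 and Pcdhb15 were 2.97- and 2.94-fold higher in INT. Pcdhb4, Pcdhb10 and Pcdhb15 reached 3 CPM in no CONT library and passed the minimum through day 3.5 pc libraries alone. Pcdhb16 was at 12.01, 14.2 and 10.99 CPM in CONT and 24.3, 20.9, 25.6 and 24.99 in INT, a smaller rise (logFC 0.95 ± 0.16, 1.93-fold, FDR 0.000203), and Pcdhb17 rose 2.05-fold. Pcdhb1 had 3 counts in all 19 libraries together.

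Gamma genes had logFC values of 0.70 to 1.56 in INT, with a median of 0.96. Pcdhgc3, one of the C-type genes at the end of the array next to the constant exons, was at 21.6, 31.2 and 27.4 CPM in CONT, 59.4, 69.8, 96.6 and 89.9 in INT, 82.7, 83.2, 82.8 and 89.1 in SVX, 82.7, 69.03, 89.9 and 81.3 in SVX_VAS and 68.4, 61.4, 63.6 and 90.2 in VAS. It had the highest level per exon length among clustered genes (4.87 RPKM in CONT and 14.4 in INT) and the largest fold of the array (logFC 1.56 ± 0.18, 2.95-fold, FDR 7.03e-06). Without overlap with CONT as well, Pcdhga4 (logFC 1.26 ± 0.28, 2.4-fold, FDR 0.00134), Pcdhga3 (logFC 1.23 ± 0.21, 2.35-fold, FDR 0.000169) and Pcdhgb1 (logFC 1.23 ± 0.19, 2.34-fold, FDR 7.44e-05) came next. Pcdhgb5 and Pcdhgb6, abundant B-type genes, rose 1.82- and 1.68-fold. The medians of the A, B and C types were 0.97 (12 genes), 0.91 (6) and 1.05 (3).

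**Figure D3:**
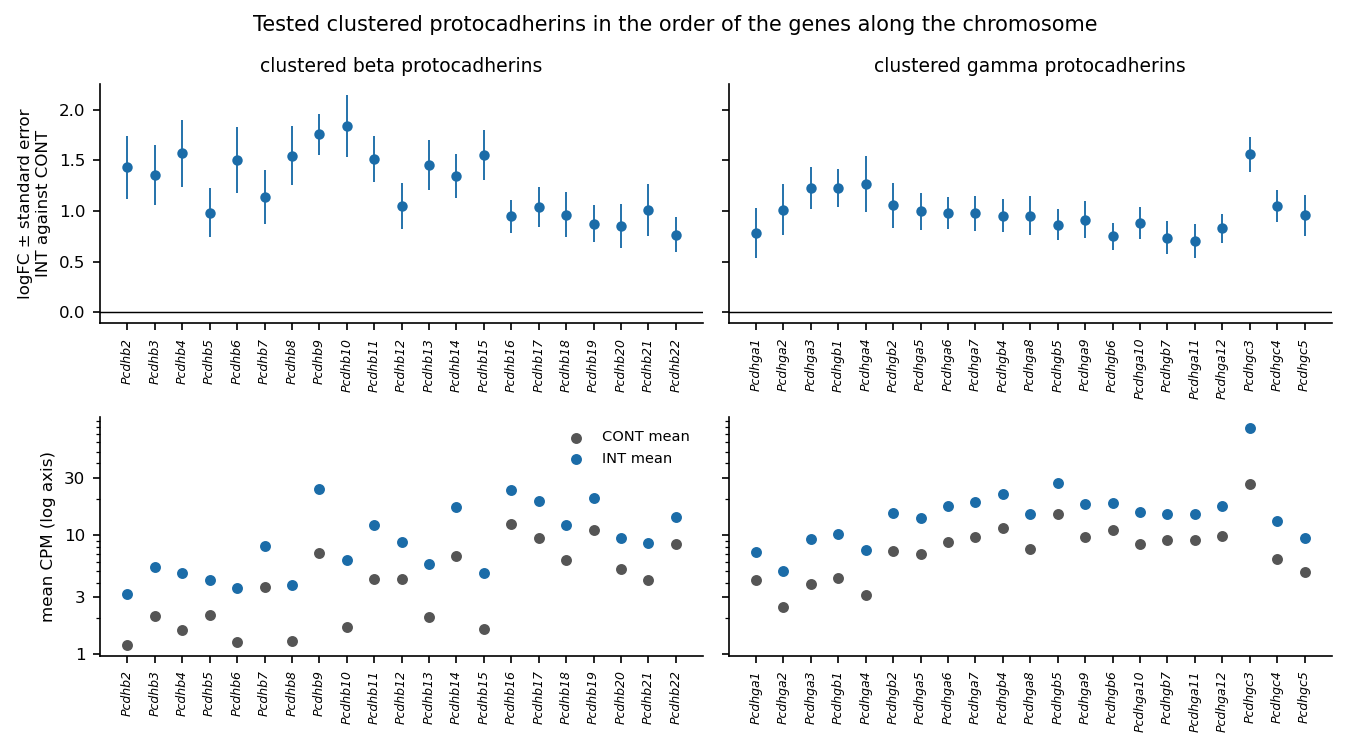
For the tested beta (left) and gamma (right) genes in chromosomal order, the upper panels show the logFC of INT against CONT with bars of 1 standard error and the lower panels the mean CPM (log axis) in CONT and INT. In the beta array Pcdhb2 to Pcdhb15 lie at 0.98 to 1.84 and Pcdhb16 to Pcdhb22 at 0.77 to 1.04, and in the gamma array Pcdhgc3 stands highest in both rows.

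Along the beta array the logFC was smaller and the level in CPM higher towards the last genes. This level is not scaled to exon length, which ran from 2588 to 8695 bases over the beta genes. The part of exon length in it was not tested. Spearman's rho over the 21 genes was -0.61 between order and logFC, 0.68 between order and mean CPM in CONT, and -0.62 between that level and the logFC, which share the CONT values. The first 14 tested genes, Pcdhb2 to Pcdhb15, had a median logFC of 1.48, and the last 7, Pcdhb16 to Pcdhb22, one of 0.95. This split was chosen after the values were seen. Of the first 14 genes, 9 reached 3 CPM in no CONT library and so passed through day 3.5 pc libraries alone, which favours large logFC values, and only 2 reached it in all CONT libraries, against 6 of the last 7. Over these 2 and 6 genes the median logFC was 1.55 and 0.91. With so few genes left in the first block, the part of the minimum in the difference was not tested. In the gamma array the corresponding rho was -0.33 for the logFC and 0.55 for the level. These are descriptions over genes measured in the same libraries.

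None of the 14 alpha genes passed the minimum. Pcdha9 was at 0.476, 1.01 and 0.303 CPM in CONT and 1.82, 1.13, 1.77 and 1.68 in INT, and Pcdha5 at 0.178, 0.718 and 0.303 and 0.832, 0.693, 1.48 and 0.98. Summed over the array alpha genes were at 3.59 ± 1.25 (SD, n = 3) and 11.8 ± 2.59 CPM (SD, n = 4). In the fit without a minimum (36300 genes, of which 12.6% were called higher in INT), 10 of 14 were higher in INT, with a median logFC of 1.71 and a range of 1.20 to 2.62. In SVX, SVX_VAS and VAS, 10, 11 and 13 were higher (background 14.2, 13.5 and 14.6%). These backgrounds include every gene with any count, so they are not matched to the level of the alpha genes. The closest to the minimum were 1 of the 2 Pcdha11 entries just outside, with 2.38 CPM in its third-highest library, and Cdh23 just inside, with 3.38.

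All 31 members below the minimum had at least 1 count, and 8 had under 30 counts over all libraries, among them the neural type II genes Cdh8 and Cdh9 (12 each). Pcdh8, a protocadherin of the embryonic mesoderm and brain, had 0 counts in all 3 CONT libraries, where up to 3 counts per library are allowed by a count of 0, and 2 to 13 counts in each day 3.5 pc library (119 in all). It was called higher in each group in the fit without a minimum.

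**Figure D4:**
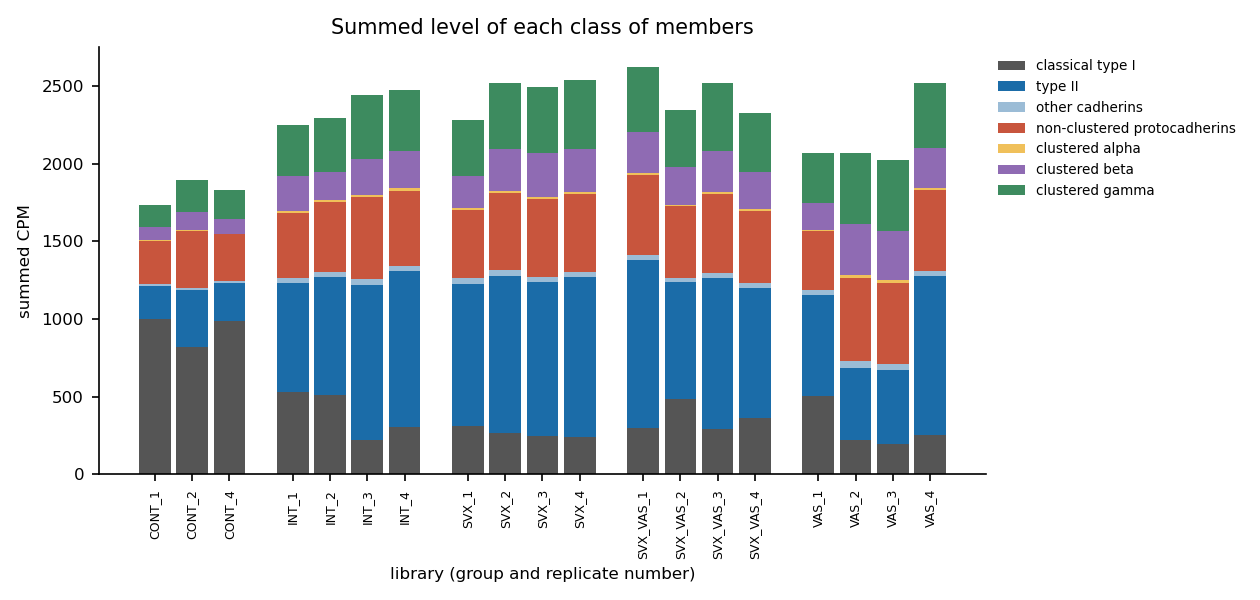
Bars show the summed CPM of the members in each of the 19 libraries, stacked by class. The type I part, mostly Cdh1, fills the largest share in CONT, with a mean of 935 CPM against 391 in INT, and the type II part grows from 275 to 867.

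Levels of cell type markers differed between the groups as well, and in whole tissue fewer cells of a type and less RNA per cell cannot be told apart. Summed CPM of 8 epithelial markers (Epcam, keratins and claudins) was 3294 to 4590.2 in CONT and 624 to 2241 in INT. By edgeR, 5 of 8 were lower and 0 higher, beside 12.7% and 20.9% of all tested genes. Per 100 CPM of these markers, Cdh1 was at 21.5 to 24.41 CPM in CONT and 22.8 to 32.9 in INT. In the other groups it lay above all CONT libraries, at 31.5 to 33.7 in SVX, 26.9 to 36.0 in SVX_VAS and 24.44 to 35.8 in VAS. The 4 day 3.5 pc libraries with the highest Cdh1 also held the highest epithelial sums (INT 1, INT 2, SVX_VAS 2 and VAS 1). Across the 16 day 3.5 pc libraries rho between Cdh1 and the epithelial sum was 0.99, a description over libraries that share their makeup.

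Summed CPM of 8 endothelial markers without Cdh5 was 184 to 259 in CONT and 631 to 915 in INT, with 8 of 8 higher, beside 20.9% of all tested genes. Per 100 CPM of these markers, Cdh5 was at 20.2 to 22.2 CPM in CONT and 26.9 to 34.5 in INT, and at 21.8 and 20.3 in VAS 2 and VAS 3. Pcdh12 was at 4.60 to 5.49 in CONT and 3.58 to 4.22 in INT on the same scale, and at 6.09 and 5.74 in VAS 2 and VAS 3. Summed CPM of 9 stromal markers was 6342 to 6832 in CONT and 8398 to 11061 in INT, with 5 of 9 higher. Cdh11 per 100 CPM of them was at 2.31 to 4.45 in CONT and 4.62 to 7.86 in INT, and at 12.0 and 12.2 in VAS 2 and VAS 3. Across the 16 day 3.5 pc libraries rho with the marker sum was 0.87 for Cdh5, 0.22 for Pcdh12 and -0.07 for Cdh11. The part of these markers in the results was not tested.

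**Figure D5:**
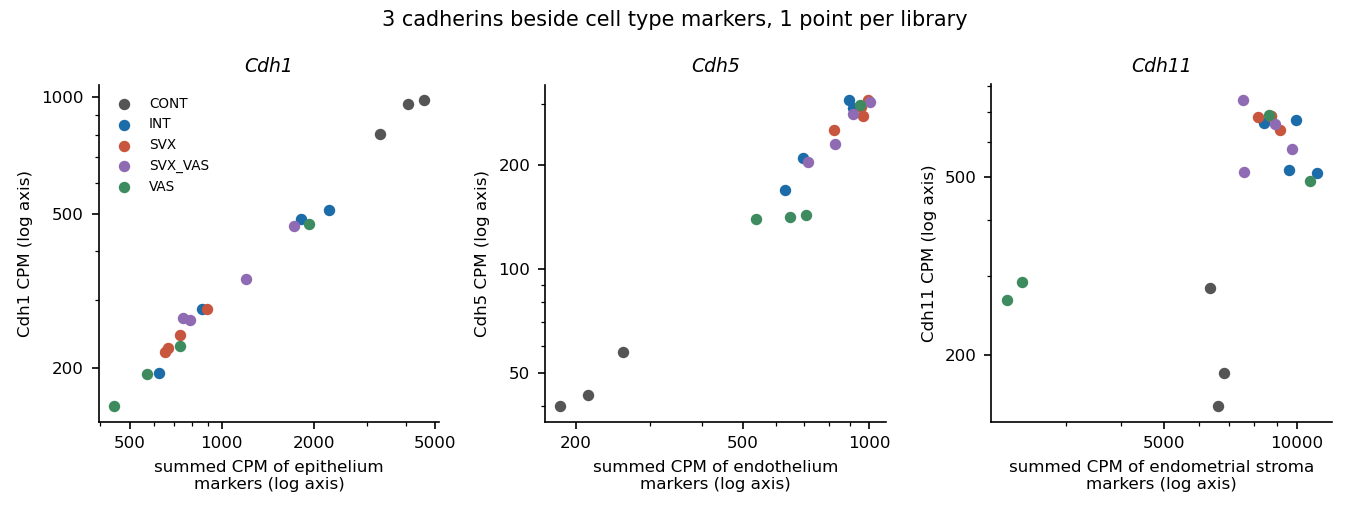
Each point is 1 of 19 libraries, with the CPM of Cdh1, Cdh5 or Cdh11 against the summed CPM of epithelial, endothelial or stromal markers (both log axes). Cdh1 runs along its marker sum from 445 to 4590.2 CPM, and in the panel of Cdh11 the libraries VAS 2 and VAS 3 lie apart at 2205 and 2383.

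Other lists were checked for cells that the scraped tissue can hold. Over all tested genes, 20.9% were called higher and 12.7% lower in INT. Gland markers were at 4.64 to 16.05 CPM in CONT and 79.8 to 457 in INT (4 of 5 higher), smooth muscle at 292 to 666 and 404 to 1192 (1 of 5), lymphatic endothelium at 22.8 to 29.3 and 39.1 to 53.9 (2 of 4) and mesothelium at 74.4 to 98.1 and 137 to 238 (1 of 4). The summed rise of the mesothelium markers did not hold for the list as a whole. Their median logFC was -0.31 in INT and -0.66 in SVX, where 1 was higher and 2 lower. Leukocyte markers were at 159.8 to 238 and 224 to 286 (4 of 5 higher, 1 lower) and red blood cell genes at 27.2 to 39.2 and 55.2 to 95.98 (4 of 5). Nerve and Schwann cell markers, which bear on neural protocadherins, were at 146 to 199 CPM in CONT and 45.97 to 129 in INT with neither of 2 tested called, nearly all of it Ngfr, and Sox10 was at 0.238 to 0.607 and 0.378 to 0.756. Proliferation genes were at 1072 to 1843 and 620.1 to 1289 (0 of 5 called) and estrogen-response genes at 12451 to 14287 and 241 to 9322 (1 of 6 higher, 1 lower). Of 5 blastocyst markers only Eomes was tested, and Cdx2 and Pou5f1 had 0 counts in CONT and INT. Eomes was called higher in INT, SVX, SVX_VAS and VAS alike (logFC 1.61, 1.72, 1.45 and 1.82). Summed, the 5 markers were at 2.50 to 4.67 CPM already in CONT, which came from virgin females, and at 5.14 to 8.12 in INT.

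The cadherin pathway outside the members was counted from a list of 56 genes, 41 of them tested, of which 11 were higher (26.8%) and 16 lower (39.02%) in INT, beside 20.9% and 12.7% of all tested genes. Catenins and junction partners, which tie cadherins to actin or build the plaque of the junction, had 10 of 17 lower and 0 higher, with a median logFC of -0.82. Among them Nectin4, a nectin of epithelia, fell by 1.88, the desmosomal plaque protein Dsp by 1.74 and Pkp2 by 1.70 on the log2 scale. Ctnnb1, the beta-catenin that binds the tail of Cdh1, was at -0.76 ± 0.37 (FDR 0.104) in INT and was not called there, but fell in SVX (-1.07, FDR 0.0216), SVX_VAS (-0.94, FDR 0.0427) and VAS (-1.48, FDR 0.00305, and -0.82 without VAS 2 and VAS 3, FDR 0.00345). Ctnnd1 and Ctnna1 fell by 0.94 and 0.72 in INT. The desmosomal cadherins Dsc2 (-2.46, FDR 0.00724) and Dsg2 (-1.70) fell, 2 of 3 tested.

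All 5 transcription factors known to repress Cdh1 were higher in INT, beside 20.9% of all tested genes. They were Snai1 (logFC 3.08, FDR 1.57e-05), Twist1 (1.95), Zeb1 (1.64), Zeb2 (1.12) and Snai2 (0.82). All of them are also known from mesenchymal cells, and the part of tissue makeup was not tested. Of 11 tested large and atypical cadherin genes, 6 were higher, led by Fat4 and Clstn2 (2.41 each) and Fat3 (1.71), and 3 were lower (Celsr2 -1.54, Celsr1 -0.99 and Fat1 -0.88). Over all tested genes, the shares in INT were 20.9% higher and 12.7% lower. Ctcf, Smchd1 and Rad21, which act in promoter choice at the clustered genes, were not called in INT (-0.31, -0.17 and -0.49). Rad21 was lower in SVX (-0.60, FDR 0.0141), SVX_VAS (-0.69, FDR 0.00628) and VAS (-0.74, FDR 0.00381, but not called without VAS 2 and VAS 3, at -0.37 with an FDR of 0.0551), whereas Ctcf and Smchd1 were not called in these groups. In SVX, SVX_VAS and VAS the pathway list had 12, 11 and 11 of 41 tested genes higher and 20, 18 and 20 lower. Over all tested genes, 23.1, 22.1 and 23.2% were higher and 18.4, 16.4 and 17.2% lower.

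The other day 3.5 pc groups were set beside INT. Against CONT, 53 members were higher and 3 lower in SVX (background 23.1 and 18.4%), 54 and 3 in SVX_VAS (22.1 and 16.4%) and 53 and 3 in VAS (23.2 and 17.2%), with median logFC values of 1.22, 1.17 and 1.30. Cdh1 and Pcdh17 were lower in all 4 groups, Cdh24 in all but VAS, and Cdh23 was called lower in VAS. Pcdh1 was called higher in SVX_VAS (logFC 0.61), with 0.49, 0.51 and 0.45 in INT, SVX and VAS, so that the groups lay on both sides of the fold threshold by small amounts, and its call was lost under 5 of the alternatives. Whether Cdh23 or Pcdh1 differed between the groups is given by the comparisons with INT, in which neither was called by edgeR with all libraries. The 4 members not called in any group were Cdh3, Cdh4, Cdh16 and Pcdh11x. Without SVX 1, the logFC in SVX was -2.004 for Cdh1, 2.65 for Cdh5, 1.73 for Cdh11, -1.19 for Cdh24 and -0.97 for Pcdh17. Cdh4 was then called lower in SVX (logFC -1.73, FDR 0.0253, against -1.09 with all libraries), and Cdh16 moved most, from -0.59 to -2.27, and was not called. Without VAS 2 and VAS 3, the logFC in VAS was -1.09 for Pcdh17, -0.61 for Cdh24 (FDR 0.0574), 2.80 for Cdh10 and 2.24 for Pcdh9, and Cdh23 was the only member to lose its call.

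Against INT itself, edgeR called 0 members in SVX, SVX_VAS and VAS, and 0% of all tested genes. At an unadjusted p under 0.05 there were 0 members of 62 in SVX, 2 in SVX_VAS (Cdh16, logFC -2.46, and Pcdh11x, 0.43) and 4 in VAS (Cdh23, -1.13, Pcdhb22, 0.38, Pcdhga11, 0.38, and Pcdhga10, 0.32). Over all tested genes the corresponding shares were 4.35, 1.97 and 10.6%. For Cdh16, INT 2 was at 7.63 CPM and the other INT libraries were at 1.25 to 1.66. DESeq2 called 0 in each group, and limma-voom called 1, Cdh23 in VAS (logFC -1.51, FDR 0.0211). Members' logFC against INT ran from -0.95 to 0.51 in SVX, from -2.46 to 0.43 in SVX_VAS and from -1.13 to 0.64 in VAS, with medians of 0.18, 0.15 and 0.23. These tests do not show that the groups are alike.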

How the data were processed

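RNA was sequenced in 19 libraries. According to the study's methods and the submitters' processing notes, the authors made stranded total RNA libraries, aligned reads with STAR to GRCm38 (mm10) and used featureCounts to count reads in genes. What they deposited are unnormalized counts, for 49089 genes. Symbols, exons and gene distances came from the GENCODE annotation of GRCm38, and promoters from RefSeq (GRCm38.p6).

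A quasi-likelihood model over all 5 groups, without a replicate block, was fitted to TMM-scaled counts using edgeR 4.0.16 (glmQLFTest) under R 4.3.3. The minimum of 3 CPM in 3 libraries kept 17222 genes, and a call needed an FDR of 0.05 or less over all of them and a 1.5-fold change. Standard errors are the logFC divided by the square root of its F statistic. RPKM used the exon length given in the table. DESeq2 1.42.0, limma-voom (limma 3.58.1), other filters, a replicate block and fits without single libraries were the alternatives. The fit was tested on simulated data. Figures were drawn with Python 3.11.15 and matplotlib 3.10.9.

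Members and lists were chosen with earlier results of these data known. One result of the pathway list is not reported here. Members were named, in each class, if they were among the 3 most abundant per exon length or among up to 4 called members with the largest logFC in each direction, and values per library were given for some of them. Cdh4, Pcdh11x and Pcdh12 were named outside this rule, after their values were seen. Further members outside it were named for low counts, shared exons or unadjusted p-values, among them Pcdh8, Pcdhgb8, Pcdhga10 and Pcdhb22. Libraries are pools, and the labels do not say that pools of a group are separate cohorts, so p-values measure only the spread between these libraries.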

Additional observations from a re-analysis of the deposited data

Results flagged for a closer look

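Within groups of 4 libraries, a library was listed when its gap to the nearest of the others was large beside the whole range (Dixon's criterion). This held for 15 of 155 groups of 4 searched, where about 7.75 are found by chance.

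SVX 1 stood out below the other SVX libraries for Cdh10 (12.4 CPM, others 19.02 to 19.6), Cdh11 (637.5 CPM, others 683 to 685), Pcdhb10 (4.91 CPM, others 7.61 to 8.10) and Pcdhb16 (21.2 CPM, others 28.3 to 29.6). The summed beta genes (203.9 CPM, others 273 to 281) and summed non-clustered protocadherins (441 CPM, others 495 to 504) of SVX 1 were also below the rest. For Cdh16, SVX 1 was above the others (4.75 CPM, others 0.287 to 0.629), as were INT 2 (7.63 CPM, others 1.25 to 1.66) and VAS 1 (7.27 CPM, others 0.777 to 1.79).

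VAS 1 was below the other VAS libraries for Pcdh1 (55.4 CPM, others 85.1 to 88.7) and for the summed non-clustered protocadherins (379.9 CPM, others 519 to 536). VAS 4 was above the others for Cdh5 (299.5 CPM, others 139 to 143), and VAS 3 for Cdh3 (11.8 CPM, others 4.79 to 5.79). SVX 2 was above the others for Cdh13 (33.2 CPM, others 27.4 to 28.0) and SVX 4 for Pcdhgc3 (89.1 CPM, others 82.7 to 83.2).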

How the results depend on the processing

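The counts of members higher and lower in INT than in CONT kept their side under other size factors, limma-voom, DESeq2 and fits of only the 2 groups. Each gave 53 of 62 members higher and 3 lower. With a minimum of 1 CPM, under which 20903 genes were tested, 61 members were higher. With no minimum, 64 of 93 members were higher, beside 12.6% of 36300 genes. These counts rest on different numbers of tested members. Counted only outside the clusters, 11 of 20 members were higher. Counted only where no exon lay opposite another gene, 42 were higher and 2 lower. Over all genes tested in the main fit, 20.9% were higher and 12.7% lower. Leaving out each library in turn gave 52 to 54 higher, 56 to 57 called in SVX, 56 to 58 in SVX_VAS and 56 to 58 in VAS. With only the 2 groups fitted, 56, 59 and 54 were called in these groups.

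Against INT, limma-voom called 1 member in VAS, and leaving out single libraries gave 0 to 1: without VAS 1, Cdh23 was called (logFC -1.67, FDR 0.0454). The logFC of Cdh16 in INT was -0.10 without CONT 2 and -0.71 without INT 2, and ran from -0.71 to 1.29 over single libraries left out. Cdh23 in VAS had an FDR of 0.148 and Cdh11 in VAS one of 0.0697 when only the 2 groups were fitted. Pcdh1 passed the fold threshold in INT without INT 1 (logFC 0.59), and in SVX_VAS did not pass it with either lower minimum, with the block or without SVX_VAS 3 or SVX_VAS 4 (logFC 0.56 to 0.58). The causes were not tested. Without SVX 1, VAS 2 and VAS 3 together, an alternative chosen after seeing the data, 53 members were higher and 3 lower in INT, and 58, 57 and 55 were called in SVX, SVX_VAS and VAS.

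Libraries of different groups with the same replicate number did not deviate together in every pair (r from -0.30 to 0.16 between INT and CONT, and from 0.07 to 0.30 between VAS and CONT), so the numbers were not taken to pair them. Each of 3 libraries correlated best with its own number between VAS and CONT, and 2 of 3 did between INT and CONT. With the number as a block, 53 members were higher and 3 lower in INT, 56 were called in SVX, 56 in SVX_VAS and 56 in VAS, and 0 in each group against INT. Depth limits members near 3 counts per library, such as Cdh6 in CONT (4 to 7 counts).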
